A study of Schmidtea mediterranea with 14 samples.

Results

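Whole uninjured planarians with severe pigment loss after apob RNAi (apob-S) were compared with control animals by RNA sequencing, using the 4 libraries labelled apob-S and the 6 control libraries. These are 10 of the 14 libraries of the series, and the other 4 came from animals with mild pigment loss (apob-M). All animals were Schmidtea mediterranea of the clonal asexual line CIW4, were fed dsRNA 3 times and were then starved for 7 days. The apob-S and apob-M animals were given dsRNA for apob-2 as well as apob-1, and the animals were sorted into the 2 groups by pigment rather than at random, while control animals received egfp dsRNA, which matches no planarian gene. Each library was a separate pool of whole animals, so that fewer cells of a type and less RNA per cell cannot be told apart.

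Apolipoprotein B is the large protein around which the intestine and liver of vertebrates assemble lipoprotein particles, the carriers of neutral lipid between organs. Cells take up such particles through receptors of the low-density lipoprotein receptor family and break down their lipid in lysosomes. Planarians have no liver and no blood vessels, and their apob transcripts are expressed in the branched intestine. The animals renew their tissues from neoblasts, the cycling stem cells of the body.

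Both dsRNAs target transcripts of the dd_Smed_v6 assembly, apob-1 (dd_Smed_v6_636_0_1) and apob-2 (dd_Smed_v6_194_0_1). A stretch of each clone is shown, since the level of these transcripts is the check of the knockdown, with the longest run that the held parts of both clones share on the same strand in capitals. The run is 9 bases long, and 11 bases when both strands are searched, over the 399 bases held of each clone.
apob-1: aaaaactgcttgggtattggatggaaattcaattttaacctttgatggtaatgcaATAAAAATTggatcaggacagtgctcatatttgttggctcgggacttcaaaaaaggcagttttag
apob-2: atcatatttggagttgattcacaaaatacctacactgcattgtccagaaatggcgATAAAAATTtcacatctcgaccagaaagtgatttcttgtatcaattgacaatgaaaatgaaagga
The apob-1 stretch covers bases 41 to 160 of its clone and the apob-2 stretch covers bases 270 to 389.

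Levels are given as normalized CPM, CPM being library counts scaled to a common total by the TMM method, and are compared within a transcript only. The apob-1 transcript was at 319, 327, 266 and 241 CPM in the 4 apob-S libraries, against 1229 to 1702 CPM with a median of 1338 CPM in the 6 control libraries. The apob-2 transcript was at 457, 477, 318 and 245 CPM in the apob-S libraries, against 980 to 1625 CPM with a median of 1059 CPM in the control libraries. Neither transcript overlapped between the groups, and apob-S replicates 3 and 4 were the lowest for both. On the log2 scale apob-1 fell by 2.29 (SE 0.107) with an adjusted p of 1.4e-11 in edgeR's quasi-likelihood test, and apob-2 fell by 1.67 (SE 0.184) with an adjusted p of 9.61e-07 in the same test. An exact two-sided permutation test gave p = 0.00952 for each, the smallest value that 4 libraries against 6 allow. Levels in apob-M animals, which were fed the same dsRNA, were 266.8 ± 32.8 CPM for apob-1 and 439 ± 89.6 CPM for apob-2 (SD, n = 4), and neither differed from apob-S by the edgeR test (adjusted p = 0.592 and 0.517). Any fed dsRNA left in the animals would be counted with the mRNA.

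Between 16839133 and 22077694 counts were available per apob-S library, against 17476691 to 23039326 per control library, and 18436 transcripts passed the minimum of 1 CPM in 4 libraries. Of these, 29.3% were called changed in apob-S at an adjusted p under 0.05, with 13.5% higher and 15.7% lower. Changes of at least 2-fold were called for 1.45%, and 13.6% of all calls were changes of 1.5 to 2-fold, with most calls below that. In 22.1% of the tested transcripts the apob-S libraries did not overlap the control libraries. The share called rose with level, from 9.62% of transcripts under 4 CPM to 57.2% in the class of the highest levels, so that shares of called members are read beside this. On the first principal component of the 500 most variable transcripts (48.1% of their variance) the apob-S libraries lay between 19 and 24.5, against −13.8 to −7.18 for control libraries, and control replicate 3 lay nearest to apob-S. One transcript without a best hit, dd_Smed_v6_4_1_1, ranged from 1117 to 57500 CPM in apob-S libraries, highest in replicate 2, and from 1083 to 24510 CPM in control libraries, highest in replicates 1 and 2.

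Functional groups were formed from human best hits, which were held for only 1936 of the 18436 tested transcripts. Of these, 24.7% were higher and 15.2% lower in apob-S, and their median log2 fold change was 0.04, against 0.00 for all tested transcripts. Among all tested transcripts the shares higher and lower were 13.5% and 15.7%, so the held set leaned to increases. The best hits came from only part of the study's tables, so that a list can lack members of its pathway. One of these tables is the study's own table of transcripts changed by apob RNAi in these libraries. The held set was thus not picked independently of these data. Counts, medians and largest changes of a list therefore cover its held members only. The groups below are described beside the values of the held set by their counts and medians alone, without a test of the group.

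**Figure D1:**
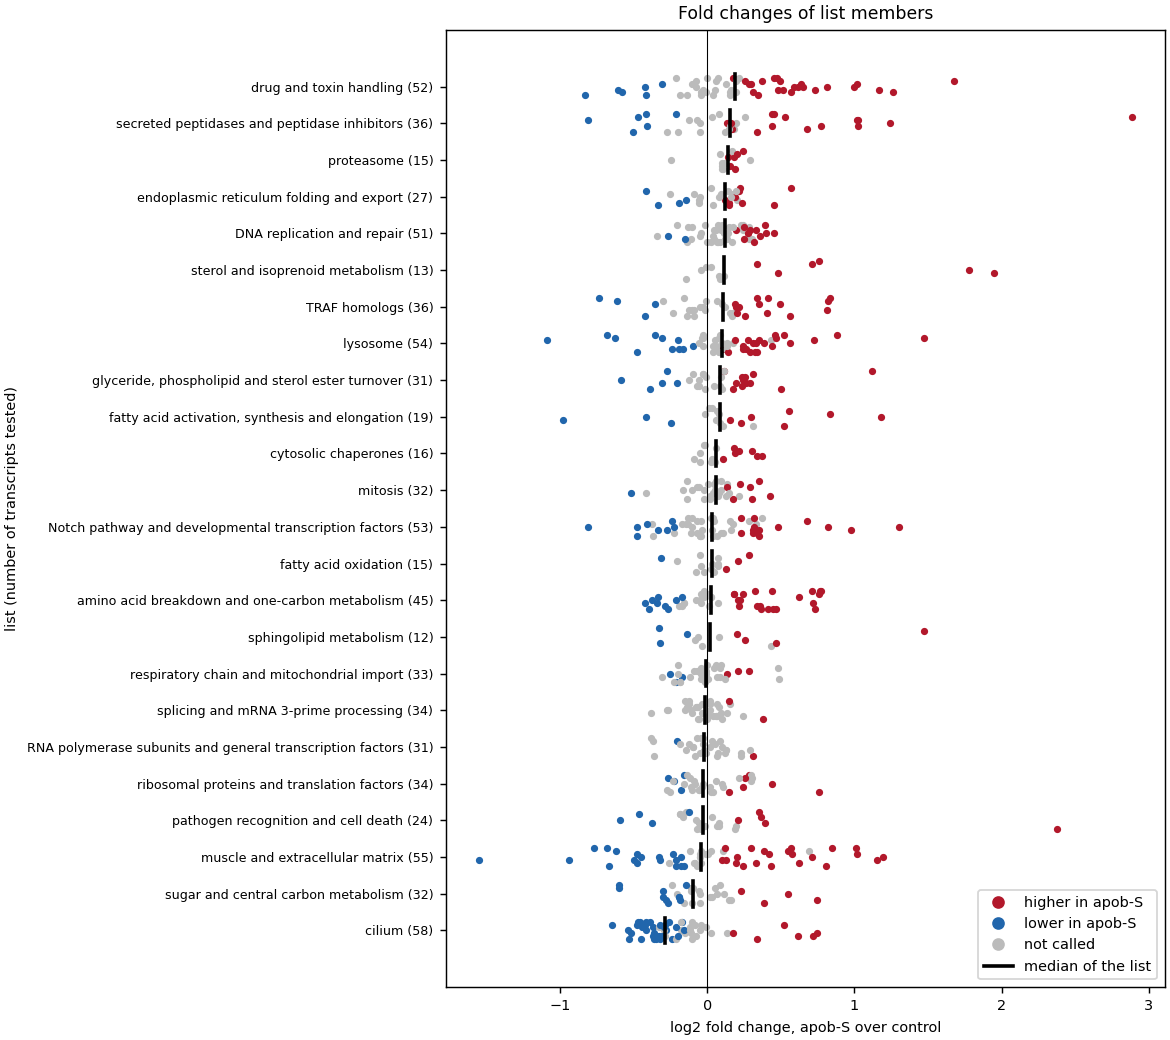
Log2 fold change of apob-S over control (x axis) for each transcript in 24 lists by human best hit (y axis, with the number of transcripts tested), coloured by the edgeR call, with a black bar at the list's median. The cilium list lies farthest to the lower side, with a median of −0.284, and the drug and toxin handling list farthest to the higher side, with a median of 0.186.

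Among lipoprotein receptors, ldlr-1 (dd_Smed_v6_9829_0_1), a homolog of the low-density lipoprotein receptor, was higher and vldlr-1 was lower. The ldlr-1 transcript was at 115, 112, 121 and 123 CPM in apob-S libraries, against 31.2 to 37.2 CPM with a median of 33.1 CPM in control libraries. Every apob-S library was above every control library, and the log2 difference was 1.81 (SE 0.0517, edgeR adjusted p = 1.81e-14). It was also higher than in apob-M animals, at 83.1 ± 6.19 CPM (SD, n = 4), by 0.50 on the log2 scale (edgeR adjusted p = 8.81e-06). The vldlr-1 transcript (dd_Smed_v6_1510_0_1) was at 224 to 230.1 CPM in apob-S libraries and 261 to 281 CPM in control libraries, a log2 fold change of −0.27 (SE 0.0328, edgeR adjusted p = 3.83e-06). The ldlr-2 transcript (dd_Smed_v6_5596_0_1) overlapped between the groups, at 119 ± 3.92 CPM in apob-S (SD, n = 4) and 114 ± 3.58 CPM in control (SD, n = 6), with an edgeR adjusted p of 0.254.

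The sterol and isoprenoid list held 13 tested transcripts, of which 6 were higher in apob-S, none was lower and 7 were not called. The median log2 fold change was 0.112, but 0.071 without apob-S replicate 3 and 0.215 at a minimum of 5 CPM. DESeq2 and the other alternatives also called none of the 13 lower, and 0 was lower at an unadjusted edgeR p under 0.05. The best hit of dd_Smed_v6_3641_0_1 is SREBF2, the transcription factor that turns on sterol synthesis and the low-density lipoprotein receptor gene in mammals. It was at 197.7, 189.6, 182.5 and 185.7 CPM in apob-S libraries, against 108 to 115 CPM with a median of 111 CPM in control libraries. The fold change was 1.7 (log2 0.76, SE 0.0368, edgeR adjusted p = 2.31e-11), and apob-M animals were at 185 ± 5.66 CPM (SD, n = 4), which did not differ from apob-S by the edgeR test (adjusted p = 0.719). The largest changes of the list were those of dd_Smed_v6_12402_0_1, with best hit TTPAL, a relative of the vitamin E transfer protein, and dd_Smed_v6_1480_0_1, with best hit APMAP, a membrane protein described in fat cells. The TTPAL-like transcript was at 19.8, 10.9, 27.6 and 13.7 CPM in apob-S libraries, against 4.04 to 5.23 CPM with a median of 4.71 CPM in control libraries, and its apob-S libraries thus spread more than 2-fold. The APMAP-like transcript was at 331, 252, 284 and 271 CPM in apob-S libraries, against 66.5 to 91.5 CPM with a median of 83.6 CPM in control libraries, a 3.44-fold difference (edgeR adjusted p = 2.68e-11). Both were higher in apob-S than in apob-M, by 1.41 and 1.33 on the log2 scale (edgeR adjusted p = 0.000271 and 1.71e-07).

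Of 19 tested transcripts for fatty acid activation, synthesis and elongation, 7 were higher in apob-S and 3 lower. The transcript with best hit ACACA (dd_Smed_v6_7823_2_1), the enzyme that makes malonyl-CoA for fatty acid synthesis, was at 109, 111, 116 and 113 CPM in apob-S libraries, against 55.1 to 67.2 CPM with a median of 63.7 CPM in control libraries. The transcript was thus 0.84 higher on the log2 scale (SE 0.048, edgeR adjusted p = 2.19e-10). SLC25A1 (dd_Smed_v6_8165_0_1), the carrier that exports citrate from mitochondria, was also higher, at 43.2 ± 3.41 CPM in apob-S (SD, n = 4) and 25.9 ± 3.27 CPM in control (SD, n = 6), with no overlap (edgeR adjusted p = 3.74e-07). AGMO (dd_Smed_v6_3673_0_1), which cleaves ether lipids, was 1.47-fold higher (edgeR adjusted p = 3.06e-09). In contrast, CBR4 (dd_Smed_v6_7587_0_1), a reductase of mitochondrial fatty acid synthesis, was at 8.86 to 11.3 CPM in apob-S libraries and 19 to 21.1 CPM in control libraries, a log2 fold change of −0.98 (SE 0.0771, edgeR adjusted p = 1.27e-08). Of 15 transcripts for fatty acid oxidation, 3 were higher, 1 was lower and 11 were not called. The share higher was not above the 24.7% among all transcripts with a best hit. None of the 15 was lower without apob-S replicate 3 or 4, and 2 were lower without apob-S replicate 1 or control replicate 6. The largest increase was 0.28 on the log2 scale, for HADH (dd_Smed_v6_725_0_1), a dehydrogenase of the oxidation cycle.

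Among 31 transcripts for glyceride, phospholipid and sterol ester turnover, 12 were higher in apob-S and 5 lower. The best hit of dd_Smed_v6_2690_0_1 is PLB1, a phospholipase of the gut lining in mammals, and this transcript was at 155, 203, 174 and 182 CPM in apob-S libraries, against 76.3 to 88.8 CPM with a median of 81.4 CPM in control libraries. It was 2.17-fold higher than in control (SE 0.0658 on the log2 scale, edgeR adjusted p = 2.91e-10) and did not differ from apob-M by the edgeR test (log2 difference −0.17, adjusted p = 0.144). CEPT1 (dd_Smed_v6_7722_0_1), which makes choline and ethanolamine phospholipids, was 1.42-fold higher (edgeR adjusted p = 3.71e-08). CHDH (dd_Smed_v6_1744_0_1), which oxidizes choline, was lower, with a log2 fold change of −0.59 (edgeR adjusted p = 5.78e-06), and was also below apob-M by 0.53 on the log2 scale (edgeR adjusted p = 0.000204).

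**Figure D2:**
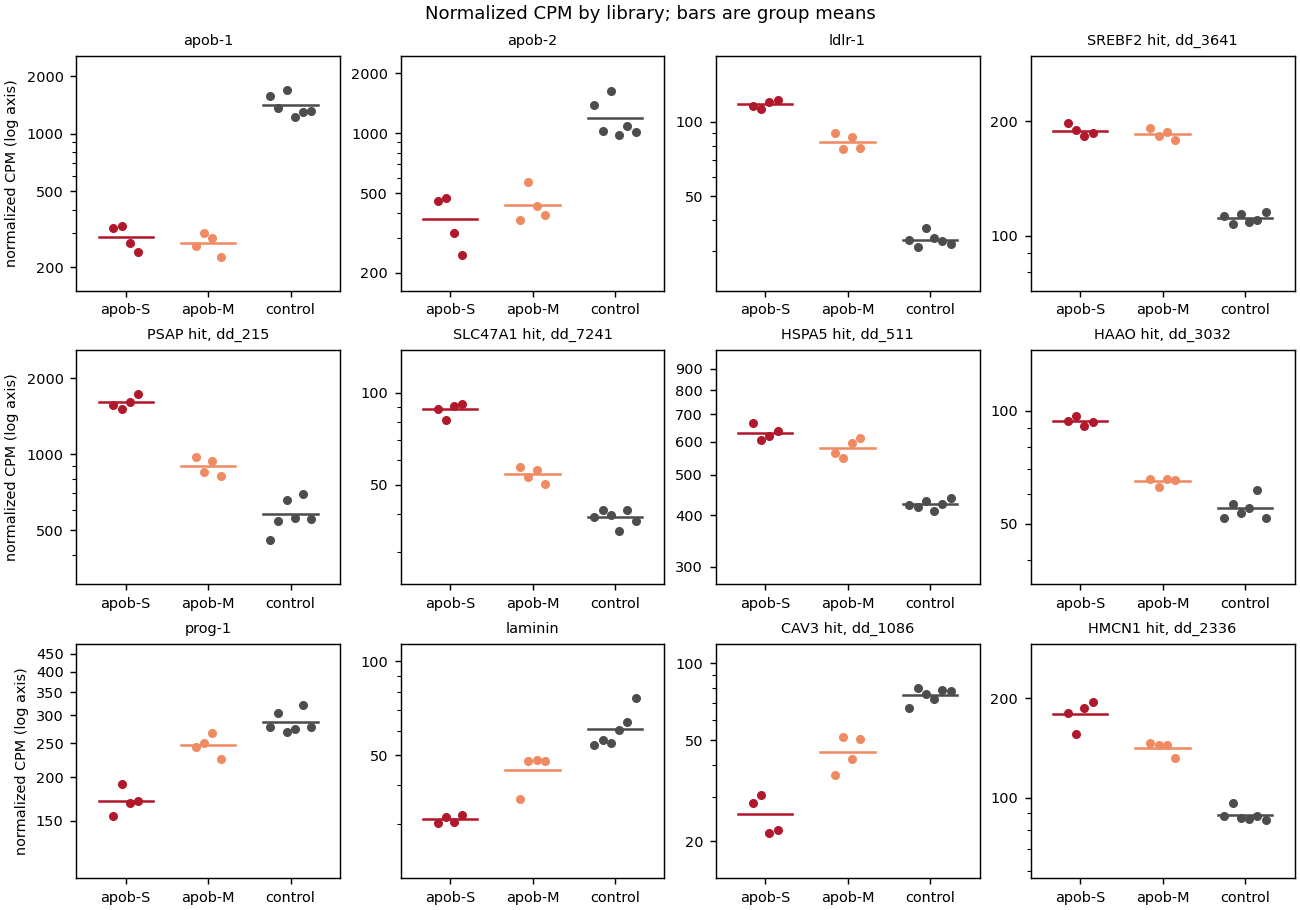
Normalized CPM on a log axis (y) in each apob-S, apob-M and control library (x) for 12 transcripts, with a bar at each group's mean. In all 12 panels every apob-S library lies outside the range of the 6 control libraries. The HAAO, PSAP and prog-1 panels are among those with apob-M means nearer to control than to apob-S.

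The lysosome list had members on both sides. Of 54 tested transcripts, 22 were higher in apob-S, 11 were lower and 21 were not called, and the median log2 fold change was 0.102. The best hit of dd_Smed_v6_215_0_1 is PSAP, the precursor of the saposins that help lysosomal enzymes to reach sphingolipids. It was at 1565, 1512, 1605 and 1724 CPM in apob-S libraries, against 459 to 697 CPM with a median of 554 CPM in control libraries, a 2.77-fold difference (log2 1.47, SE 0.0836, edgeR adjusted p = 1.94e-10). A second PSAP-like transcript, dd_Smed_v6_396_0_1, was 1.39-fold higher (edgeR adjusted p = 1.04e-06), and both exceeded apob-M, by 0.84 and 0.32 on the log2 scale (edgeR adjusted p = 8.39e-06 and 0.00104). CLN8 (dd_Smed_v6_7852_0_1), an endoplasmic reticulum protein, was 1.66-fold higher than in control (edgeR adjusted p = 1.7e-07). The intestinal cathepsin ctsla (dd_Smed_v6_267_0_1) overlapped between the groups, at 1804 ± 130 CPM in apob-S (SD, n = 4) and 1844 ± 83.3 CPM in control (SD, n = 6; edgeR adjusted p = 0.69).

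The drug and toxin handling list, made of cytochromes P450, conjugating enzymes, efflux pumps and iron and redox proteins, had the highest median of the 24 lists. Of 52 tested transcripts, 24 were higher in apob-S and 6 lower, and 22 were higher in apob-S than in apob-M with 5 lower, beside 12% called in either direction among all tested transcripts. The apob-S libraries had list medians 0.162 to 0.261 above the control mean on the log2 scale, and the control libraries were between −0.0259 and 0.0356. The largest log2 fold change of the list was 1.67, that of a CYP2J2-like P450 described below. Transcripts with best hit SLC47A1, an exporter of organic cations, were also among the higher members. The first, dd_Smed_v6_7241_0_1, was at 88.6, 81.1, 90.7 and 92.1 CPM in apob-S libraries, against 35.3 to 41.3 CPM with a median of 39.5 CPM in control libraries (2.25-fold, edgeR adjusted p = 3.82e-12). The second, dd_Smed_v6_2361_0_1, was at 190 ± 12.6 CPM in apob-S (SD, n = 4) and 93.8 ± 4.38 CPM in control (SD, n = 6; edgeR adjusted p = 5.87e-11). Reads that matched several transcripts were counted on each, so that these relatives may share counts. AKR1B10 (dd_Smed_v6_9852_0_1), an aldehyde reductase, was at 9.87, 7.48, 9.69 and 9.62 CPM in apob-S libraries, against 3.41 to 4.34 CPM with a median of 3.81 CPM in control libraries (log2 difference 1.26 with SE 0.0994, edgeR adjusted p = 1.22e-08), and at 4.3 ± 0.156 CPM in apob-M (SD, n = 4).

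**Figure D3:**
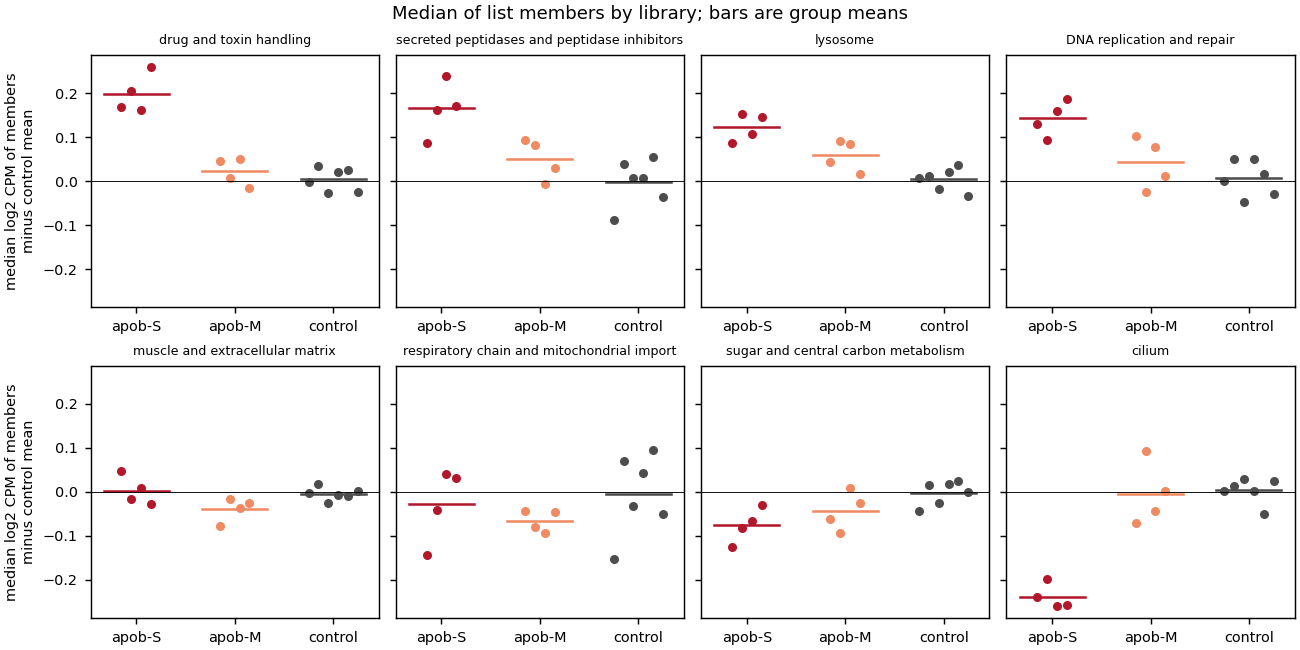
Median over the members of 8 lists of log2 CPM minus the control mean (y) in each apob-S, apob-M and control library (x), with a bar at each group's mean. The cilium medians of the 4 apob-S libraries lie between −0.261 and −0.198, below the control libraries at −0.0501 to 0.0296, while the muscle and extracellular matrix medians of apob-S and control overlap.

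The list of secreted peptidases and peptidase inhibitors, placed by best hit and not all secreted, had more members higher than lower. Of 36 tested transcripts, 16 were higher in apob-S, 6 lower and 14 not called. Among all transcripts with a best hit 24.7% were higher and 15.2% lower. The largest log2 fold change of the list was 2.88, that of an APLP2-like transcript described below. The best hit of 2 abundant members is PRSS12, a secreted serine protease. Of these, dd_Smed_v6_790_0_1 was at 2469, 2675, 2726 and 2980 CPM in apob-S libraries, against 1037 to 1210 CPM with a median of 1170 CPM in control libraries (2.37-fold, edgeR adjusted p = 2.1e-12). The other, dd_Smed_v6_1926_0_1, was 2.03-fold higher (SE 0.0409 on the log2 scale, edgeR adjusted p = 1.48e-12), and both also exceeded apob-M, by 0.37 and 0.44 (edgeR adjusted p = 0.000208 and 4.06e-06). PI16 (dd_Smed_v6_11957_0_1), a secreted protein of the cysteine-rich family, was at 22.8 ± 2.0 CPM in apob-S (SD, n = 4) and 11.2 ± 1.16 CPM in control (SD, n = 6; edgeR adjusted p = 4.47e-09).

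Enzymes of amino acid breakdown and one-carbon metabolism changed in both directions, with 21 of 45 tested transcripts higher in apob-S and 9 lower. Enzymes of tryptophan breakdown by the kynurenine route were on both sides, with the largest increases of the list in HAAO and ACMSD. HAAO (dd_Smed_v6_3032_0_1) was at 94, 96.9, 90.9 and 93.2 CPM in apob-S libraries, against 51.7 to 61.7 CPM with a median of 54.2 CPM in control libraries (1.7-fold, edgeR adjusted p = 2.69e-10). ACMSD (dd_Smed_v6_8766_0_1), which acts on the product of HAAO, was at 42.4, 43.9, 37.8 and 46.2 CPM in apob-S libraries, against 21.8 to 26.7 CPM with a median of 25.5 CPM in control libraries (1.71-fold, edgeR adjusted p = 3.03e-08). HAAO differed between apob-S and apob-M by 0.53 on the log2 scale (edgeR adjusted p = 1.45e-06), while ACMSD did not by the same edgeR test (adjusted p = 0.768). KYNU (dd_Smed_v6_10866_0_1), which acts before HAAO on the same route and is named here after its values were seen, fell by 0.38 on the log2 scale (edgeR adjusted p = 0.00479). HAO1 (dd_Smed_v6_10691_0_1), a peroxisomal glycolate oxidase, was 1.69-fold higher (edgeR adjusted p = 2.31e-07), and BDH1 (dd_Smed_v6_5348_0_1), a ketone body dehydrogenase, was 1.66-fold higher (edgeR adjusted p = 4.99e-08). SLC7A1 (dd_Smed_v6_13892_0_1), a transporter of cationic amino acids, was at 15.8, 7.68, 13.1 and 11.5 CPM in apob-S libraries, against 2.46 to 4.15 CPM with a median of 3.19 CPM in control libraries. Its mean in apob-M was 3.25 ± 0.951 CPM (SD, n = 4), within the control range, with single libraries at 2.68, 2.29, 4.40 and 3.64 CPM. The level in apob-S exceeded apob-M by 1.89 on the log2 scale (edgeR adjusted p = 1.57e-05).

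Sugar and central carbon enzymes were lower more often than higher, with 10 of 32 tested transcripts lower in apob-S, 4 higher and a median log2 fold change of −0.099. This median was −0.057 without control replicate 5 and −0.052 with the replicate block, and the number higher was 2 among transcripts alone in their assembly component. The largest decreases were in SLC25A10 (dd_Smed_v6_10436_0_1), the mitochondrial dicarboxylate carrier, at 9.13 ± 1.97 CPM in apob-S (SD, n = 4) and 13.9 ± 0.771 CPM in control (SD, n = 6; edgeR adjusted p = 0.000154), and a pyruvate kinase, dd_Smed_v6_10576_0_1, at 8.14 ± 1.01 CPM in apob-S (SD, n = 4) and 12.3 ± 1.97 CPM in control (SD, n = 6; edgeR adjusted p = 0.000618). The glycolytic gapdh transcript (dd_Smed_v6_78_0_1) was at 2233, 2367, 2364 and 2430 CPM in apob-S libraries, against 2708 to 2929 CPM with a median of 2823 CPM in control libraries, a log2 fold change of −0.26 (SE 0.0278, edgeR adjusted p = 6.2e-07). The translation elongation factor ef-2 (dd_Smed_v6_186_0_1), often used like gapdh as a reference transcript, was at 3767 ± 19.6 CPM in apob-S (SD, n = 4) and 3754 ± 106 CPM in control (SD, n = 6), with a log2 fold change of 0.00 (edgeR adjusted p = 0.906). In the respiratory chain and mitochondrial import list 3 of 33 transcripts were higher and 3 lower. The number lower was 1 without apob-S replicate 1, 3 or 4 or with scaling by library size alone, and 0 with the replicate block.

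In the list of endoplasmic reticulum folding and export, 9 of 27 tested transcripts were higher in apob-S, 4 were lower (2 by edgeR's exact test) and 14 were not called. HSPA5 (dd_Smed_v6_511_0_1), the main chaperone of that compartment, was at 666.5, 605.6, 619.2 and 636.3 CPM in apob-S libraries, against 409 to 440.2 CPM with a median of 425 CPM in control libraries (1.49-fold, SE 0.0362 on the log2 scale, edgeR adjusted p = 6.88e-10). HYOU1 (dd_Smed_v6_2324_0_1), its nucleotide exchange partner, was 1.37-fold higher (edgeR adjusted p = 4.45e-08). Of 16 cytosolic chaperones 7 were higher and none was lower by edgeR's test, by DESeq2 or under the other alternatives, with 0 lower at an unadjusted edgeR p under 0.05, and HSPA8 (dd_Smed_v6_320_0_1) was at 1835 ± 25.8 CPM in apob-S (SD, n = 4) and 1415 ± 66.1 CPM in control (SD, n = 6; edgeR adjusted p = 3.75e-07). Neither HSPA5, HYOU1 nor HSPA8 differed between apob-S and apob-M by the edgeR test (adjusted p = 0.0514, 0.395 and 0.448). EIF2S1 (dd_Smed_v6_6582_0_1), the subunit of initiation factor 2 that is phosphorylated under stress in other animals, was at 15.3, 16.9, 15.4 and 15.1 CPM in apob-S libraries, against 8.6 to 9.95 CPM with a median of 9.08 CPM in control libraries (1.69-fold, edgeR adjusted p = 1.6e-07). Among ribosomal proteins and translation factors, 6 of 34 tested transcripts were higher, 4 lower and 24 not called, with a median log2 fold change of −0.03. With each library left out, 3 to 8 were higher and 1 to 8 lower. Of the 15 proteasome transcripts 6 were higher in apob-S, a count that was 2 without control replicate 3, by the exact test or with scaling by library size alone, and 3 with no filter or without apob-S replicate 3 or 4 or control replicate 4 or 5.

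The TRAF homologs, adaptor proteins of the tumour necrosis factor and Toll pathways, form a large family in this assembly, with 36 tested transcripts. Of these, 14 were higher in apob-S, 4 were lower and 18 were not called. Transcripts with the same best hit went in both directions. Of those with best hit TRAF6, dd_Smed_v6_14661_0_1 was at 7.14, 8.63, 7.27 and 11.1 CPM in apob-S libraries, against 4.03 to 5.79 CPM with a median of 4.71 CPM in control libraries (log2 difference 0.81 with SE 0.15, edgeR adjusted p = 0.000338). In contrast, dd_Smed_v6_8004_0_1 was at 14.6, 13.6, 15.9 and 14.4 CPM in apob-S libraries, against 23 to 25.9 CPM with a median of 24.3 CPM in control libraries (log2 difference −0.73 with SE 0.0547, edgeR adjusted p = 6.3e-09). A TRAF5-like transcript, dd_Smed_v6_19217_0_1, was higher at a low level, with 3.43 ± 0.506 CPM in apob-S (SD, n = 4) and 1.94 ± 0.0681 CPM in control (SD, n = 6; edgeR adjusted p = 0.000162). In the pathogen recognition and cell death list, 5 of 24 transcripts were higher and 4 lower. These shares were near the 24.7% and 15.2% among all transcripts with a best hit. The number lower was 2 without apob-S replicate 4, and also without the libraries high in dd_Smed_v6_4_1_1. Among those called were PGLYRP3 (dd_Smed_v6_9550_0_1), which binds bacterial peptidoglycan, 1.31-fold higher (edgeR adjusted p = 0.000158), and NLRC3 (dd_Smed_v6_10342_0_1), an intracellular receptor, with a log2 fold change of −0.59 (edgeR adjusted p = 7.71e-05). The largest log2 fold change of the list was 2.38, that of a COLEC10-like lectin described below. It was the only increase of at least 2-fold in the list.

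Ciliary transcripts formed the group with the most members lower in apob-S. Of 58 tested transcripts, 33 were lower, 6 were higher and 19 were not called, and the median log2 fold change was −0.284. Decreases were small, and none of the 58 was lower by 2-fold. The largest was that of DAW1 (dd_Smed_v6_16089_0_1), an assembly factor of ciliary dynein arms, at 6.39, 5.29, 4.89 and 3.81 CPM in apob-S libraries, against 6.9 to 10.1 CPM with a median of 7.66 CPM in control libraries (edgeR adjusted p = 0.00075). Among the members that were higher, dd_Smed_v6_8201_0_1, with best hit DNAH10, an axonemal dynein heavy chain, was at 7.41, 7.34, 8.76 and 8.27 CPM in apob-S libraries, against 3.74 to 6.56 CPM with a median of 4.70 CPM in control libraries (edgeR adjusted p = 2e-04). CEP97 (dd_Smed_v6_11066_0_1), a centriolar protein that holds back cilium formation in mammalian cells, was 1.53-fold higher (edgeR adjusted p = 2.81e-05). Against apob-M, 21 of the 58 were lower in apob-S and 2 higher, with a median log2 difference of −0.223, beside 12% called in either direction among all tested transcripts. The planarian epidermis, the protonephridia and some neurons carry cilia, and prog-1 (dd_Smed_v6_332_0_1), a marker of early epidermal progeny, was lower alongside. It was at 155, 191, 168 and 171 CPM in apob-S libraries, against 269 to 321 CPM with a median of 278 CPM in control libraries (log2 difference −0.75 with SE 0.0631, edgeR adjusted p = 3.19e-08). It was also lower than in apob-M by 0.53 on the log2 scale (edgeR adjusted p = 4.28e-05). By counts on sections, the paper reports much the same share of prog-1-positive cells in apob RNAi and control animals. It also reports a lower density of mature cells in the ventral epidermis of apob-S animals. The part of epidermal cell number in the ciliary counts was not tested here.

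Muscle and extracellular matrix transcripts were changed more often than those of any other list, but in both directions. Of them 72.7% were called, against 29.3% of all tested transcripts. Among all transcripts with a best hit, from which the lists were drawn, 24.7% were higher and 15.2% lower. The share called also rose with level, and the lists were not matched for level. Of 55 tested transcripts, 22 were higher in apob-S and 18 lower, and the median log2 fold change was −0.039, with the opposite sign with the replicate block and without apob-S replicate 4, control replicate 3 or control replicate 6, at 0.016, 0.039, 0.035 and 0.009. CAV3 (dd_Smed_v6_1086_0_1), the caveolin of muscle membranes, was at 28.3, 30.4, 21.6 and 22.2 CPM in apob-S libraries, against 66.8 to 79.8 CPM with a median of 77.1 CPM in control libraries (log2 difference −1.55 with SE 0.102, edgeR adjusted p = 1.16e-09). LDB3 (dd_Smed_v6_10318_0_1), a protein of the sarcomere's Z-disc in vertebrates, was at 8.18 ± 0.222 CPM in apob-S (SD, n = 4) and 15.8 ± 1.22 CPM in control (SD, n = 6; edgeR adjusted p = 1.63e-08). Both were also lower than in apob-M, by 0.81 and 0.51 on the log2 scale (edgeR adjusted p = 6.29e-05 and 0.00042). Higher members included some large matrix proteins, while other matrix transcripts fell. Of 20 transcripts in the study's list for basement membrane organization, 19 were lower and 0 higher, with a median log2 fold change of −0.334. The study drew that list from transcripts lower in these same libraries, so its direction was set by that choice. The paper also reports moderately lower levels of most fibrillar collagens after apob RNAi. HMCN1 (dd_Smed_v6_2336_0_1), hemicentin, was at 180, 156, 187 and 195 CPM in apob-S libraries, against 85.7 to 96.3 CPM with a median of 87.2 CPM in control libraries (2.03-fold, edgeR adjusted p = 7.09e-11). HSPG2 (dd_Smed_v6_18579_0_1), perlecan of basement membranes, was at 7.49, 5.69, 6.67 and 6.45 CPM in apob-S libraries, against 2.27 to 4.06 CPM with a median of 2.74 CPM in control libraries (2.22-fold, edgeR adjusted p = 5.22e-06). TNXB (dd_Smed_v6_3632_0_1), a tenascin, was uneven among apob-S libraries, at 39.3, 24.2, 39.6 and 21.7 CPM, against 11.7 to 16 CPM with a median of 13.6 CPM in control libraries (edgeR adjusted p = 2.25e-06), and at 11.4 ± 1.15 CPM in apob-M (SD, n = 4).

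Cell type markers differed in direction. The neoblast marker piwi-1 (dd_Smed_v6_659_0_1) was at 434, 416, 436 and 431 CPM in apob-S libraries, against a median of 403 and a maximum of 415 CPM in control libraries, so that the groups just missed overlapping, but it was not called (log2 difference 0.09 with SE 0.0344, edgeR adjusted p = 0.0623). The exact two-sided permutation test of this marker alone gave p = 0.00952. Adjusted p-values of piwi-1 were between 0.0324 and 0.465 over the alternatives. A marker of a neoblast subset, tgs-1 (dd_Smed_v6_10988_0_1), was at 10.4, 10.2, 11 and 9.62 CPM in apob-S libraries, against 5.19 to 8.39 CPM with a median of 6.68 CPM in control libraries (1.56-fold, edgeR adjusted p = 0.000156). The laminin marker of the pharynx (dd_Smed_v6_8356_0_1) was at 30.3, 31.6, 30.5 and 32.3 CPM in apob-S libraries, against 53.8 to 76.1 CPM with a median of 58.1 CPM in control libraries (log2 difference −0.97 with SE 0.093, edgeR adjusted p = 1.74e-07).

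Of the intestinal markers other than apob-1 and apob-2, nkx2.2 (dd_Smed_v6_2716_0_1), a transcription factor, was higher in apob-S by 0.32 on the log2 scale (edgeR adjusted p = 4.86e-06), and the transporter slc22a6 (dd_Smed_v6_1159_0_1) was 1.27-fold higher (edgeR adjusted p = 2.97e-06). The npc2 transcript (dd_Smed_v6_73_0_1), for a sterol-binding protein of lysosomes, was lower, at 429, 505, 431 and 458 CPM in apob-S libraries and 468 to 648 CPM in control libraries with overlap (edgeR adjusted p = 0.0397), and the call was lost without apob-S replicate 1, 3 or 4 or control replicate 3, 4 or 5, with an adjusted p of at most 0.122. The edgeR test called neither ChAT (dd_Smed_v6_6208_0_1), the enzyme of cholinergic neurons, nor the pole markers notum (dd_Smed_v6_24180_0_1) and wnt11-2 (dd_Smed_v6_16209_0_1), with adjusted p of 0.655, 0.116 and 0.607, and the pole markers were near 1.86 and 4.73 CPM in apob-S. The intestine, neoblast and neuron markers were thus detected in every group.

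Of 51 tested transcripts for DNA replication and repair, 12 were higher in apob-S and 2 lower, with a median log2 fold change of 0.119 and no change of 2-fold. The share higher was near the 24.7% among all transcripts with a best hit, of which 15.2% were lower. In DESeq2, and without apob-S replicate 2 or 4 or control replicate 2, 4, 5 or 6, 1 was lower. MCM7 (dd_Smed_v6_4712_0_1), a subunit of the replicative helicase, was at 58.4, 54.7, 54.1 and 61.6 CPM in apob-S libraries, against 42.5 to 44.9 CPM with a median of 43.5 CPM in control libraries (1.31-fold, edgeR adjusted p = 3.58e-06). DUT (dd_Smed_v6_2921_0_1), which keeps uracil out of DNA, was 1.37-fold higher (edgeR adjusted p = 0.000393). Of 32 mitosis transcripts 7 were higher and 1 was lower, and the share higher was not above the 24.7% among all transcripts with a best hit. None of the 32 was higher without apob-S replicate 4 or with scaling by library size alone, 1 was higher without control replicate 3, and 3 to 6 were higher without any other library. The member that was lower was NDC80 (dd_Smed_v6_14673_0_1), a kinetochore subunit, at 2.89 ± 0.552 CPM in apob-S (SD, n = 4) and 4.12 ± 0.647 CPM in control (SD, n = 6; edgeR adjusted p = 0.0149), and this call was lost without apob-S replicate 1 (adjusted p = 0.0733). Of 34 splicing and mRNA 3-prime processing transcripts 2 were called, both higher. The count depended on single libraries, with 4 higher without apob-S replicate 1, none higher without apob-S replicate 3 or 4 or control replicate 3, and 2 lower without control replicate 1.

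Of 53 transcripts of the Notch pathway and developmental transcription factors, 14 were higher in apob-S and 8 lower. The number lower was 5 without apob-S replicate 3 or 4 or without the libraries high in dd_Smed_v6_4_1_1. With all libraries, these shares were near the 24.7% higher and 15.2% lower among all transcripts with a best hit. EGR4-like transcripts, of a family of zinc finger factors that respond quickly to signals, were higher in all apob-S libraries. The first, dd_Smed_v6_9273_0_1, was at 13.2, 8.03, 8.86 and 8.04 CPM in apob-S libraries, against 2.55 to 4.99 CPM with a median of 4.06 CPM in control libraries (2.46-fold, edgeR adjusted p = 3.93e-06). The second, dd_Smed_v6_7731_0_1, was at 29.9, 21, 22.8 and 19.8 CPM in apob-S libraries, against 10.1 to 13.7 CPM with a median of 11.96 CPM in control libraries (1.97-fold, edgeR adjusted p = 4.81e-06), and apob-S replicate 1 was the highest for both. DLL1 (dd_Smed_v6_13823_0_1), a ligand of Notch, was at 38, 37.8, 40.7 and 38.5 CPM in apob-S libraries, against 21.1 to 23.3 CPM with a median of 21.6 CPM in control libraries (1.76-fold, edgeR adjusted p = 2.37e-10). FERD3L (dd_Smed_v6_10868_0_1), a basic helix-loop-helix factor, was lower, at 2.31 ± 0.343 CPM in apob-S (SD, n = 4) and 4.04 ± 0.453 CPM in control (SD, n = 6; edgeR adjusted p = 0.00141).

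Where apob-S and control did not overlap and log2 CPM averaged 2 or more, the largest fold changes belonged to those for which no human best hit was held. The transcript dd_Smed_v6_1202_0_1 was at 228, 164, 507 and 353 CPM in apob-S libraries, against 1.58 to 5.5 CPM with a median of 2.37 CPM in control libraries, a 111-fold difference (log2 6.79, SE 0.431, edgeR adjusted p = 6.94e-10). Its level in apob-M was 9.67 ± 8.25 CPM (SD, n = 4), and apob-S exceeded apob-M by 5.03 on the log2 scale (edgeR adjusted p = 1.05e-06). The transcript dd_Smed_v6_3606_0_1 was at 149, 89.7, 205 and 149 CPM in apob-S libraries, against 3.61 to 9.0 CPM with a median of 5.28 CPM in control libraries (25.9-fold, edgeR adjusted p = 2.64e-11). For dd_Smed_v6_574_0_1 the apob-S libraries were at 163, 79.7, 144 and 136 CPM, against 4.28 to 15.8 CPM with a median of 6.15 CPM in control libraries (16-fold, edgeR adjusted p = 7.14e-09). In all 3 transcripts apob-S replicate 2 was the lowest of its group, and control replicate 3 the highest of the control libraries.

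**Figure D4:**
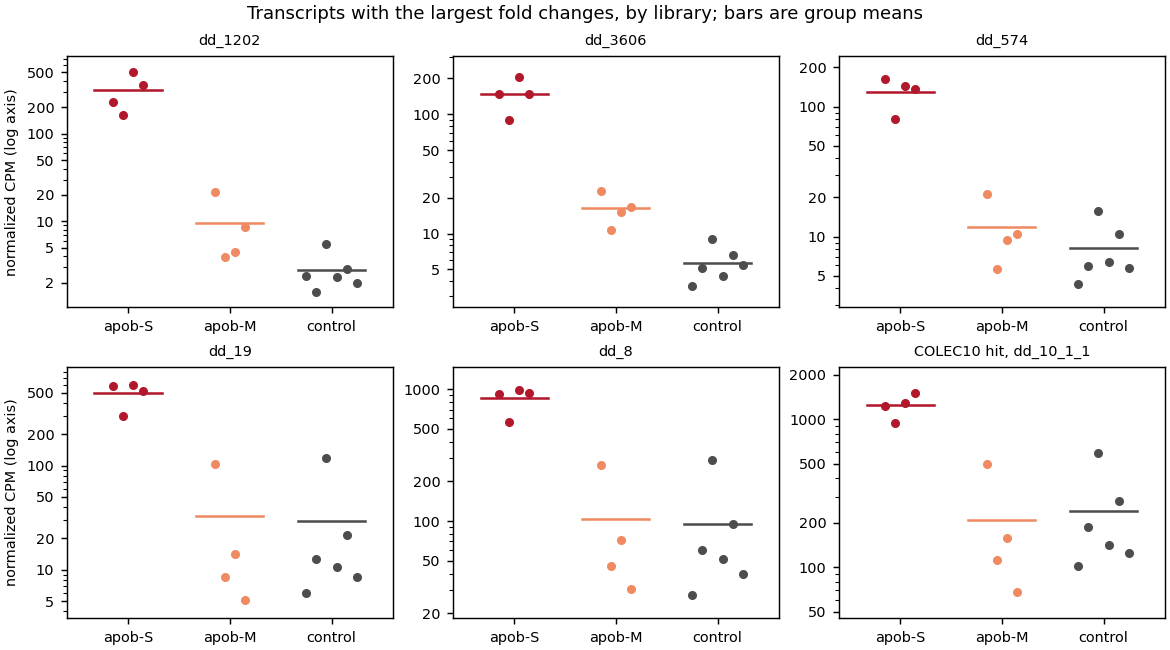
Normalized CPM on a log axis (y) in each apob-S, apob-M and control library (x) for 6 transcripts with large fold changes, with a bar at each group's mean. All apob-S libraries lie above all other libraries, and for dd_19, dd_8 and the COLEC10 hit control replicate 3 stands above the other control libraries, at 118, 290 and 595 CPM.

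Control replicate 3 shared part of this pattern. The transcript dd_Smed_v6_19_0_1 was at 581, 297, 595 and 526 CPM in apob-S libraries, against 6.01 to 118 CPM with a median of 11.6 CPM in control libraries, and dd_Smed_v6_8_0_1 was at 918, 563, 986 and 931 CPM in apob-S libraries, against 27.7 to 290.1 CPM with a median of 56 CPM in control libraries. Their log2 fold changes were 4.08 (edgeR adjusted p = 0.000549) and 3.17 (edgeR adjusted p = 0.000341), and 5.41 and 3.95 without control replicate 3. The same library was the highest control for a COLEC10-like lectin, dd_Smed_v6_10_1_1, at 595 CPM, for an APLP2-like transcript, dd_Smed_v6_1268_0_1, at 14.6 CPM, and for a CYP2J2-like P450, dd_Smed_v6_2394_0_1, at 14.6 CPM. Without it their log2 fold changes were 2.89, 3.45 and 1.90, against 2.38, 2.88 and 1.67 with all libraries. All of these were called with and without that library. Among apob-M libraries, replicate 1 was the highest for these transcripts, with 104 CPM of dd_Smed_v6_19_0_1. What these libraries have in common was not tested.

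Large decreases without a best hit, under the same limits, were in part also present in apob-M. The transcript dd_Smed_v6_557_0_1 was at 7.1, 7.53, 8.3 and 8.45 CPM in apob-S libraries, against 26.6 to 39.5 CPM with a median of 32 CPM in control libraries (log2 difference −2.05 with SE 0.152, edgeR adjusted p = 5.57e-09), and at 9.8 ± 2.93 CPM in apob-M (SD, n = 4). Levels of dd_Smed_v6_5240_0_1 were 3.50 ± 0.667 CPM in apob-S (SD, n = 4) and 12.2 ± 1.67 CPM in control (SD, n = 6), and levels of dd_Smed_v6_5690_0_1 were 2.51 ± 0.878 CPM in apob-S (SD, n = 4) and 8.41 ± 0.819 CPM in control (SD, n = 6), with log2 fold changes of −1.82 and −1.74 (edgeR adjusted p = 6.57e-08 and 2.72e-07). None of these 3 differed between apob-S and apob-M by the edgeR test (adjusted p = 0.281, 0.427 and 0.833). In contrast to these, dd_Smed_v6_1041_0_1 was lower in apob-S than in control by 1.81 and lower than in apob-M by 0.61 on the log2 scale (edgeR adjusted p = 1.34e-09 and 0.00509).

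Most of the other transcripts with a best hit and large changes belonged to none of these groups. The largest of these was in dd_Smed_v6_3383_0_1, with best hit ARF1, a small GTPase of vesicle traffic. It was at 181, 187, 159 and 184 CPM in apob-S libraries, against 17.9 to 24.7 CPM with a median of 20.5 CPM in control libraries (8.42-fold, edgeR adjusted p = 3.15e-14). The level in apob-S was lower than in apob-M by 0.60 on the log2 scale (edgeR adjusted p = 0.000344). TMEM41A (dd_Smed_v6_3066_0_1), a membrane protein, was 3.38-fold higher in apob-S than in control and did not differ from apob-M by the edgeR test (adjusted p = 0.229). TMEM56 (dd_Smed_v6_10262_0_1), also a membrane protein, was at 31.2, 30.2, 32.3 and 30.3 CPM in apob-S libraries, against 10.6 to 12.4 CPM with a median of 11.1 CPM in control libraries (2.74-fold, edgeR adjusted p = 1.04e-12). SLC30A10 (dd_Smed_v6_10605_0_1), a metal ion exporter, was at 12.1, 7.19, 11.5 and 6.86 CPM in apob-S libraries, against 3.08 to 3.67 CPM with a median of 3.32 CPM in control libraries (2.82-fold, edgeR adjusted p = 4.77e-07). ALAS2 (dd_Smed_v6_1226_0_1), the first enzyme of haem and porphyrin synthesis, was at 141, 146, 148 and 132 CPM in apob-S libraries, against 241 to 269.5 CPM with a median of 257 CPM in control libraries (log2 difference −0.86 with SE 0.0535, edgeR adjusted p = 5.77e-10), and lower than in apob-M by 0.39 on the log2 scale (edgeR adjusted p = 0.00014). PLSCR1 (dd_Smed_v6_11132_0_1), a phospholipid scramblase, fell by 1.16 on the log2 scale (edgeR adjusted p = 3.22e-06). SLC43A3 (dd_Smed_v6_10840_0_1), a membrane transporter, and LEXM (dd_Smed_v6_10776_0_1) fell by 0.93 and 0.97 on the log2 scale (edgeR adjusted p = 2.82e-07 and 9.22e-07). PTPRJ (dd_Smed_v6_10872_0_1), a receptor tyrosine phosphatase, and DNPEP (dd_Smed_v6_1052_0_1), a cytosolic aminopeptidase placed in the peptidase list, each fell by 0.81 (edgeR adjusted p = 4.17e-08 and 7.57e-09).

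The median SD of log2 CPM over all tested transcripts was 0.121 in apob-S (n = 4) and 0.123 in control (n = 6). Chi-square per degree of freedom between pairs of libraries was 10.6 to 83.4 among apob-S libraries and 2.95 to 44.1 among control libraries. The called transcripts that varied most among apob-S libraries were dd_Smed_v6_447_0_1, at 23.1, 25.5, 11.7 and 7.39 CPM in apob-S libraries and 5.42 to 16.7 CPM in control libraries with overlap, and dd_Smed_v6_6151_0_1, at 21.4, 10.8, 29.9 and 9.56 CPM, followed by dd_Smed_v6_451_0_1, dd_Smed_v6_1202_0_1 and dd_Smed_v6_6808_0_1. The call of dd_Smed_v6_447_0_1 (edgeR adjusted p = 0.0329) was lost without apob-S replicate 1 or 2 or control replicate 3, 4, 5 or 6, with adjusted p up to 0.143. Replicates 1 and 3 were the high ones for dd_Smed_v6_6151_0_1 and dd_Smed_v6_6808_0_1, as for the TTPAL-like and TNXB-like transcripts above. For dd_Smed_v6_451_0_1, at 163, 164, 87.2 and 57.3 CPM in apob-S libraries and 189.9 to 288 CPM in control libraries, replicates 3 and 4 were the low ones, as for apob-1 and apob-2.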

How the data were processed

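RNA of 14 whole-animal pools (4 apob-S, 4 apob-M, 6 control) was sequenced as paired reads. Per the labels and the methods, BBDuk was used by the authors for trimming and Bowtie2 2.3.1 for alignment to dd_Smed_v6 transcripts, and reads were counted with featureCounts (Subread 1.6.3), with multiple and overlapping matches counted on each transcript, and FastQC 0.11.5 also stands in the submitters' processing notes. The authors deposited raw counts per transcript for 28069 transcripts, and every per-sample column belonged to a library of the series. Their table of fold changes, log2 CPM and false discovery rates was not used.

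The 18436 transcripts that reached 1 CPM in 4 or more of the 14 libraries were kept. All libraries were fitted together with edgeR 4.0.16's quasi-likelihood test in R 4.3.3, with TMM normalization, group as the only term and Benjamini-Hochberg adjustment over all tested transcripts at 0.05. Normalized CPM is given as single values, ranges or mean ± SD over libraries. Log2 CPM used a prior count of 2. Single transcripts were also compared by an exact two-sided permutation test over libraries. The script was tested on simulated counts.

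Human best hits were read from the part held here of the supplementary tables, for 1993 transcripts, and are hits by similarity rather than tested orthologs. These tables include the study's table of transcripts changed by apob RNAi, from which identities alone were read. Transcripts were named by these rules: those that the study names, the 12 largest and 12 most negative changes with a best hit and the 5 without one (called, mean log2 CPM of at least 2, no overlap with control), up to 4 called members a list with the largest change, and the 5 called transcripts with the largest SD among apob-S libraries. Some transcripts that the rules name are not reported here. Members and lists were chosen with earlier results of these data known. Alternatives were edgeR's exact test, DESeq2 1.42.0, other normalizations and filters, apob-S and control alone, the replicate number as a block, transcripts alone in their assembly component, each library left out, and, added after the data were seen, the libraries with over 20000 CPM of dd_Smed_v6_4_1_1 taken out. Every pair of replicates differed by more than counting noise (lowest chi-square per degree of freedom 2.95). Pools are separate animals of one clone. No genome was used, so no coordinates are given.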

Additional observations from a re-analysis of the deposited data

Results flagged for a closer look

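In 190 groups of 4 apob-S or 6 control libraries, over 95 transcripts, 14 held a library far from the others. Chance alone gives this in about 1 of 20 groups. Control replicate 3 was far above its nearest control for dd_Smed_v6_10_1_1 (595 against 280 CPM), dd_Smed_v6_1202_0_1 (5.5 against 2.89 CPM), dd_Smed_v6_19_0_1 (118 against 21.5 CPM) and dd_Smed_v6_8_0_1 (290 against 95.7 CPM). Other control libraries stood above the rest for wnt11-2 (replicate 6, 6.05 against 4.34 CPM), BDH1 (replicate 5, 19 against 16.8 CPM), HMCN1 (replicate 2, 96.3 against 88.1 CPM) and dd_Smed_v6_447_0_1 (replicate 1, 16.7 against 8.42 CPM), and control replicate 4 stood below for NDC80 (2.93 against 4.1 CPM). Among apob-S libraries, replicate 2 was low for dd_Smed_v6_8_0_1 (562 against 918 CPM) and AKR1B10 (7.48 against 9.62 CPM) and high for EIF2S1 (16.9 against 15.4 CPM). Replicate 1 was high for the EGR4-like dd_Smed_v6_9273_0_1 (13.2 against 8.86 CPM) and replicate 3 for PTPRJ (16.8 against 14.4 CPM).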

How the results depend on the processing

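Of 1890 values of 95 named transcripts under the alternatives, 1864 kept their call, 20 lost it and 6 gained it. No called transcript changed sign, while the uncalled ctsla (dd_Smed_v6_267_0_1) was 0.01 without apob-S replicate 1 and the uncalled ef-2 (dd_Smed_v6_186_0_1) was −0.01 with scaling by library size alone. The calls lost were those of npc2 (dd_Smed_v6_73_0_1), dd_Smed_v6_447_0_1 and NDC80 (dd_Smed_v6_14673_0_1), whose adjusted p reached 0.122, 0.143 and 0.0861, and piwi-1 was called under some alternatives, with an adjusted p down to 0.0324 in DESeq2. With no filter on low counts 217 transcripts were higher and 205 lower by at least 2-fold, against 131 and 136 with the filter, and with a minimum of 5 CPM 85 were lower by at least 2-fold, where 27923 and 13016 transcripts were tested. Leaving out each library in turn gave 2159 to 2461 transcripts higher and 2565 to 2868 lower. Scaling by library size alone called 4353 transcripts, of which 40.7% were higher, against 46.2% with TMM. With the replicate number as a block, 4670 transcripts were called and 83.1% of the calls were kept. Same-numbered apob-S and control libraries deviated together only weakly, with correlations of 6.9e-05 to 0.125. Not every library correlated best with its own number. The labels do not state what same-numbered libraries shared, and these correlations cannot show that they shared nothing else. Without the libraries high in dd_Smed_v6_4_1_1, chosen after seeing the data, 4426 transcripts were called.

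Medians near 0 changed sign. The muscle and matrix median of −0.039 was 0.016 with the replicate block and −0.039 to 0.039 with each library left out. The RNA polymerase median of −0.02 was 0.039 without the libraries high in dd_Smed_v6_4_1_1 and −0.057 to 0.035 with each library left out, and the Notch and developmental factor median of 0.035 was −0.008 to 0.047. The causes were not tested. Transcripts under 4 CPM were rarely called, so that changes of low transcripts were less detectable at this depth.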
